A study of Cardamine hirsuta with 12 samples.

Results

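The regions described here were reproducible ChCUC1:V peaks that had no partner in the reproducible list of untagged plants, yet had a relaxed peak in every single untagged library. They numbered 2150, of 15299 reproducible ChCUC1:V peaks in all and of 13605 on the 8 chromosomes. A region was taken when it lay on Chr1 to Chr8, shared no bp with a reproducible Ox peak, shared at least 1 bp with a peak in each of the 3 relaxed Ox lists, and had its midpoint outside 1 peak-dense stretch per chromosome. The stretches left out ran from 16 to 19 Mb on Chr1, 6 to 9.5 Mb on Chr2, 13.5 to 17 Mb on Chr3, 8 to 10 Mb on Chr4, 9.5 to 13.5 Mb on Chr5, 9.5 to 12.5 Mb on Chr6, 6.5 to 10.5 Mb on Chr7 and 9.5 to 10.5 Mb on Chr8. Of the 2962 peaks that met the overlap rule on the chromosomes, 812 lay in these stretches and 2150 outside. The peak lists of both genotypes thus chose the regions, so their presence, absence and strength in those lists are given as description, with no test.

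The study used chromatin immunoprecipitation and sequencing (ChIP-seq) with the anti-GFP antibody ab290 to find DNA bound by ChCUC1 in *Cardamine hirsuta*. The tagged plants (ChCUC1:V) carried *ChCUC1p::ChCUC1g:Venus*, in which the gene's own upstream sequence drives ChCUC1 joined to the GFP derivative Venus, and the controls were untagged wild-type Oxford (Ox) plants. The genotype label reads Oxford for all libraries, so the tag is given only by their titles. All groups shared the same handling: soil-grown seedlings under short days, harvested 14 days after germination without roots and mature leaves, about 20 g per replicate, fixed at 4 °C for 20 min with formaldehyde at 1%. There were 12 libraries in 4 groups of 3, namely ChCUC1:V IP, ChCUC1:V input, Ox IP and Ox input, and the 6 IP libraries had a peak list each. Whole shoots mix many cell types, so fewer cells with a bound site and less protein bound per cell cannot be told apart. The sources do not say whether replicates were grown apart or how many transgenic lines were pooled.

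CUC proteins are NAC-domain transcription factors that mark the boundaries between organs and, in species with compound leaves, are needed at the leaf margin for leaflets to form. An IP from plants without the tag recovers DNA that the antibody, the beads or open, easily sheared chromatin yield without the tagged protein, and is therefore the usual background for a tagged IP. A reproducible list holds peaks whose ranks agree between replicates, measured by the irreproducible discovery rate (IDR), whereas a relaxed list of a single library also keeps weak peaks. A region can thus be absent from the reproducible Ox list and still be seen in each Ox library, and that gap between the list types is where these regions lie.

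Among the 4542 tagged-only regions outside the stretches, the 2150 with a peak in all 3 Ox libraries were the most numerous class. A further 1034 had a peak in 2 Ox libraries, 613 in 1 and 745 in none. The shared class, reproducible in both genotypes, held 4953 regions. Each region is described by the fold enrichment over pooled control at its summit, by the −log10 p of the peak, and by its rank percentile, the place of that peak in its own library's list by −log10 p, with 100 for the strongest. Where several peaks of a library met a region, the strongest stood for that library, and its summit could lie outside the region.

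The regions were broad for tagged-only peaks and weak for reproducible ones. Their median width was 1285 bp (quartiles 850 to 1881.75 bp), and together they covered 3.31 Mb. Regions with a peak in 2, 1 or no Ox library had medians of 782, 672 and 651 bp, and shared regions had a median of 1761 bp. A width above 2 kb was found in 22.1% of the 2150 regions, against 0.403% of those with no Ox peak and 42.8% of the shared class. Width moved with the rule itself, since a wide region has more bases with which to meet another peak. Of tagged-only regions under 500 bp, 39 of 323 (12.1%) had a peak in all 3 Ox libraries, and the share was 30.6% from 500 to 1000 bp, 65.0% from 1 to 2 kb, 90.1% from 2 to 4 kb and 98.5% (67 of 68) above that. Narrow tagged-only peaks were thus rarely, and wide ones nearly always, seen in every Ox library. Under the stricter demand that relaxed peaks of each Ox library cover at least 50% of the region, the median width was 941 bp over 461 regions.

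In strength the regions lay slightly above the other tagged-only classes and below the shared one. Their median fold in the reproducible list was 2.03 (range 1.21 to 3.59), against 1.98, 1.97 and 1.94 in the classes with a peak in 2, 1 and no Ox library and 2.25 in the shared class. The top scaled IDR score of 1000 was held by 769 of them (35.8%, Wilson 95% interval 33.8 to 37.8, for counting error only), against 22.4% of regions with no Ox peak and 69.1% of shared regions. The share of tagged-only regions that had a peak in every Ox library was 40.8% at a fold of 1.5 to 2, 53.7% at 2 to 2.5 and 57.6% at 2.5 to 3. Of the 9 tagged-only regions with a fold of 3 or more, 8 were also seen in every Ox library. The share was thus highest in the class of strongest tagged-only peaks, which held only 9 regions. These shares were not taken at like widths, and width moved with the rule.

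Support from the tagged side was close to that of reproducible ChCUC1:V peaks as a whole. A relaxed peak was present in all 3 ChCUC1:V libraries at 1960 of the 2150 regions (91.2%), where 89.2% of all reproducible ChCUC1:V peaks had such support, and in the classes with a peak in 2, 1 and no Ox library the share was 75.3%, 65.1% and 59.6%. Those classes were also narrower, and a narrower region has fewer bases with which to meet a relaxed peak. Of the 2150 regions, another 169 had a peak in 2 ChCUC1:V libraries and 20 in 1. A single region, on Chr8 from 3247612 to 3248047 (436 bp, fold 1.76 in the reproducible list), had no peak in any ChCUC1:V library although its folds in Ox replicates 1 to 3 were 1.997, 2.48 and 1.65. It was picked out after its values were seen. By library, peaks were found at 2147, 2083 and 2008 regions in ChCUC1:V replicates 1, 2 and 3.

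Next, the height of the peaks in single libraries was compared. At the regions, median rank percentiles were 70.4, 58.8 and 56.5 in ChCUC1:V replicates 1, 2 and 3, against 51.2, 51.2 and 53.6 in Ox replicates 1, 2 and 3. In the tagged libraries the peaks thus sat above the middle of the list, and in the untagged ones at its middle. Shared regions stood higher in every library, with median rank percentiles of 85.5, 77.2 and 76.9 in the ChCUC1:V libraries and 81.9, 80.9 and 83.5 in the Ox libraries. Peaks of the top 10% of a library were found at 12.8%, 4.85% and 4.48% of the regions in ChCUC1:V replicates 1, 2 and 3 and at 2.70%, 5.58% and 4.14% in Ox replicates 1, 2 and 3.

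**Figure D1:**
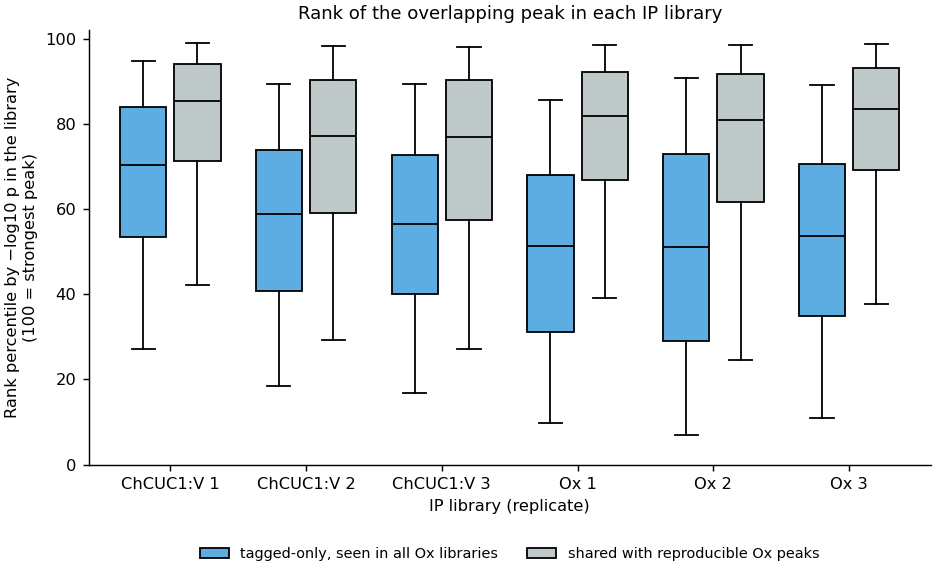
Rank percentile of the strongest overlapping peak in each IP library (y axis, 100 for the strongest peak of that library), for the 2150 tagged-only regions seen in all Ox libraries (blue) and for 4953 shared regions (grey); boxes give quartiles and median, whiskers the 5th and 95th percentiles. The blue medians lie between 56.5 and 70.4 in the ChCUC1:V libraries and between 51.2 and 53.6 in the Ox libraries, below the grey median of the same library throughout.

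The Ox peaks at the regions were weak in at least 1 library and differed between libraries. The smallest of the 3 Ox −log10 p values had a median of 4.14 (quartiles 3.45 to 4.89, range 2.0 to 10.1), where the relaxed lists begin at 2, and the largest had a median of 7.15 (range 3.33 to 21.4). The lowest of the 3 Ox rank percentiles had a median of 29.6 at the regions, against 59.7 at the 5858 reproducible Ox peaks outside the stretches that had a peak in all 3 Ox libraries. The Ox rank percentiles of a region spread over a median of 38.0 points, against 26.4 points at reproducible Ox peaks, and over more than 50 points at 606 regions (28.2%), against 18.8%. By rank no single Ox library was the weak one. The lowest rank lay in Ox replicate 1 at 714 regions, in Ox replicate 2 at 777 and in Ox replicate 3 at 659. By −log10 p Ox replicate 2 was the lowest, with medians at the regions of 6.50, 4.56 and 5.54 in Ox replicates 1, 2 and 3. The medians of their whole lists had the same order, at 6.38, 4.54 and 5.34. The IDR that defines the reproducible Ox list compares peak ranks between replicates. Higher ranks and a smaller spread at reproducible Ox peaks thus follow in part from how that list was made. Whether rank spread kept a region out of the Ox list was not tested.

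Some regions had untagged peaks as strong as those kept by the Ox list. In all 3 Ox libraries 411 regions (19.1%) lay in the top 50% of the list, 36 (1.67%) in the top 25% and 7 (0.326%) in the top 10%. The same shares of reproducible Ox peaks were 64.3%, 26.8% and 7.56%. By the lowest of the 3 ranks, 669 regions (31.1%) reached the lower quartile of reproducible Ox peaks, 182 (8.47%) their median and 34 their upper quartile. The regions and the reproducible Ox peaks thus overlapped in untagged strength, with most regions in the lower range.

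The overlap with the Ox lists was often partial. The median share of a region's bases inside relaxed peaks was 63.5%, 84.8% and 90.4% in ChCUC1:V replicates 1, 2 and 3, against 75.8%, 38.0% and 60.04% in Ox replicates 1, 2 and 3. These shares move with the width of peaks in each library, whose medians at the regions were 554, 960 and 1231 bp in the ChCUC1:V libraries and 795, 345 and 538 bp in the Ox libraries. At least 50% of the bases were covered in all 3 Ox libraries at 461 regions (21.4%), none was covered whole in all 3, and under 10% was covered in at least 1 library at 36. The 3 Ox lists had at least 1 bp in common inside 1968 regions (91.5%), and at the other 182 the untagged peaks did not all meet at any base.

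Members near the edge of the rule show how small an overlap sufficed. The smallest overlap with an Ox library was 13 bp, on Chr1 from 12542569 to 12543095, followed by 15 bp on Chr8 from 2981817 to 2982523 and 27 bp on Chr4 from 16443343 to 16444367. Just outside the rule, a region on Chr1 from 21765431 to 21766505 missed the nearest peak of Ox replicate 2 with a gap of 1 bp. In ChCUC1:V replicates 1 to 3 it had folds of 2.33, 1.75 and 1.82. A region on Chr1 from 21164858 to 21165649 missed Ox replicate 1 with a gap of 5 bp, and a region on Chr1 from 5699628 to 5700688 missed Ox replicate 3 with a gap of 7 bp. On the other border, a region on Chr8 from 10833384 to 10834856 was counted as shared for 31 bp in common with a reproducible Ox peak. Its folds were 2.62, 2.19 and 1.98 in ChCUC1:V replicates 1 to 3 and 1.77, 3.07 and 1.92 in Ox replicates 1 to 3, and it was picked out after its values were seen. The summit that gave 1.77 lay 1041 bp from the region's summit, outside the region and inside that reproducible Ox peak. The next smallest such overlaps were 85 bp, on Chr5 from 4871764 to 4876321, and 219 bp, on Chr8 from 8930920 to 8932263. Both were likewise picked out after their values were seen. At the latter, folds were 3.08, 1.96 and 3.22 in ChCUC1:V replicates 1 to 3. The summit that gave 3.22 lay 2043 bp from the region's summit, outside the region and inside the reproducible Ox peak.

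The position of the summit was compared to ask whether tagged and untagged peaks stood at the same place. Single-library summits lay at median distances of 101, 64 and 112 bp from the region's reproducible summit in ChCUC1:V replicates 1, 2 and 3, against 145, 182.5 and 157 bp in Ox replicates 1, 2 and 3. The reproducible summit comes from the tagged libraries, so the distances of the 2 genotypes are not measured on equal terms. All 3 Ox summits lay within 250 bp of it at 689 regions (32.0%, Wilson 95% interval 30.1 to 34.0, for counting error only), where 31.2% was the share over all 12125 reproducible ChCUC1:V peaks with a peak in every Ox library. In 683 regions 2 of the Ox summits did so, in 515 only 1, and in 263 none. The 3 ChCUC1:V summits all lay within 250 bp at 979 of 1960 regions (49.9%), and all 6 summits did at 433 (22.1%).

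Agreement of summits depended on width. All 3 Ox summits were within 250 bp at 37 of 39 regions narrower than 500 bp (94.9%), at 64.2% from 500 to 1000 bp, at 19.4% from 1 to 2 kb and at 5.86% above that. Untagged summits thus mostly lay close by in narrow regions and mostly apart in wide ones. Width itself bears on this, since a narrow region leaves little room for a summit inside it to lie over 250 bp away. The same shares by width were not taken over all reproducible ChCUC1:V peaks, so nothing particular to these regions is shown. The share itself depended on the distance allowed, with 7.26% at 100 bp and 54.5% at 500 bp, and reached 43.2% when any peak of the library, not the strongest, could supply the summit.

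**Figure D2:**
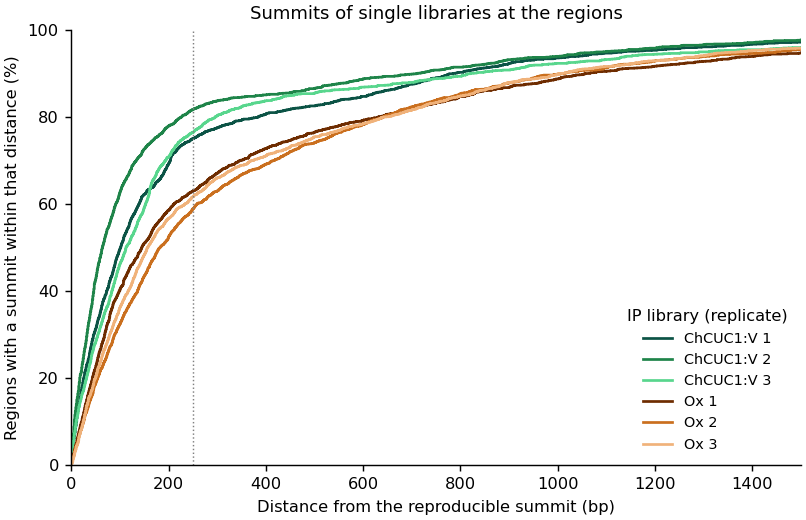
Share of regions (y axis, %) whose strongest overlapping peak had its summit within a given distance in bp (x axis) of the region's reproducible summit, for 3 ChCUC1:V libraries (green) and 3 Ox libraries (brown); the dotted line marks 250 bp. At that distance the ChCUC1:V curves stand at 75.1%, 81.8% and 76.5% and the Ox curves at 63.0%, 58.9% and 61.7%.

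The height of the tagged peaks over the untagged ones was then set side by side at the 1960 regions with a peak in all 6 libraries. The median of the mean fold was 2.17 in ChCUC1:V and 2.28 in Ox. The median log2 ratio of ChCUC1:V to Ox was −0.06 (quartiles −0.17 to 0.05), against −0.11 over all 11496 reproducible ChCUC1:V peaks with a peak in all 6 libraries, and 34.9% of the regions had a ratio above 0. All 3 ChCUC1:V folds lay above all 3 Ox folds at 41 regions (2.09%), where 1.17% of all reproducible ChCUC1:V peaks did so, and all 3 lay below at 93 regions (4.74%), where 7.23% did so. By fold the groups overlapped at the other 1826 regions (93.2%).

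The order of the genotypes depended on the measure. By −log10 p the median was 8.28 in ChCUC1:V and 5.72 in Ox, a median log2 ratio of 0.56, and all 3 ChCUC1:V values lay above all 3 Ox values at 700 regions (35.7%), where 26.8% of all reproducible ChCUC1:V peaks did so, and below at 1, where 0.209% did so. By rank percentile the median was 59.8 in ChCUC1:V and 52.1 in Ox, with all 3 above at 247 regions (12.6%), where 7.37% did so, and all 3 below at 48 (2.45%), where 6.69% did so. Fold thus placed the untagged peaks slightly higher, and −log10 p and rank placed the tagged peaks higher. A −log10 p also depends on the number of reads, which the lists do not give.

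Single libraries set the sign of the fold comparison. Median folds at the regions were 2.52, 2.05 and 1.92 in ChCUC1:V replicates 1, 2 and 3, against 2.04, 2.55 and 2.20 in Ox replicates 1, 2 and 3, so that the groups overlapped and the highest medians were in ChCUC1:V replicate 1 and Ox replicate 2. Those are also the libraries with the narrowest peaks of their group. Between single libraries the median log2 ratio ran from −0.40 (ChCUC1:V replicate 3 to Ox replicate 2) to 0.31 (ChCUC1:V replicate 1 to Ox replicate 1). Without Ox replicate 2 the median log2 ratio was 0.04 and 193 regions had all ChCUC1:V folds above all Ox folds. Without ChCUC1:V replicate 3 the ratio was 0.01 and that count 120, and without ChCUC1:V replicate 2 the count was 69. The count with all ChCUC1:V folds below was 589 without ChCUC1:V replicate 1, 328 without Ox replicate 1 and 155 without Ox replicate 3. By the names of the lists, ChCUC1:V replicates 1 and 2 and Ox replicates 2 and 3 shared a sequencing run, and ChCUC1:V replicate 3 and Ox replicate 1 came from a run each of their own. Within the shared run the median log2 ratio was −0.05.

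**Figure D3:**
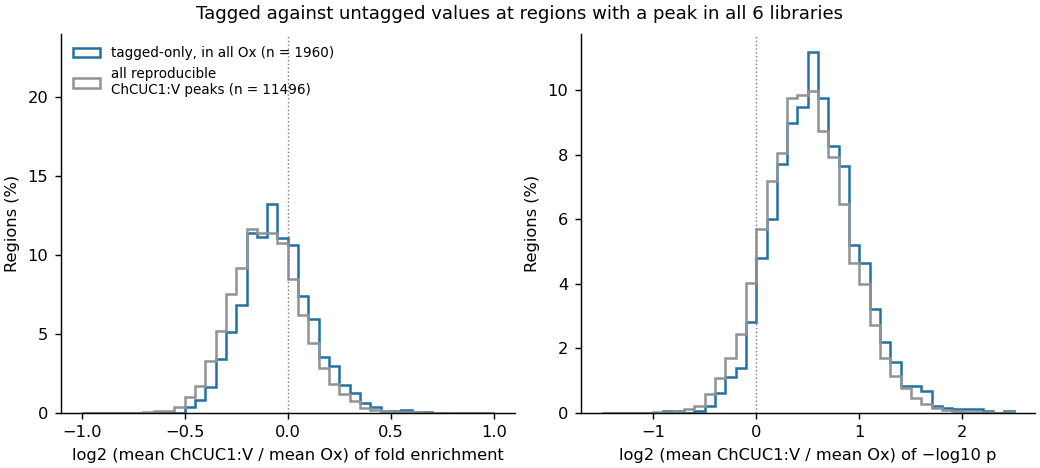
Share of regions (y axis, %) by the log2 ratio of the ChCUC1:V mean to the Ox mean (x axis) of fold enrichment (left) and of −log10 p (right), for the 1960 tagged-only regions with a peak in all 6 libraries (blue) and all 11496 such reproducible ChCUC1:V peaks (grey); the dotted line marks equal means. The fold ratios of the blue regions centre on −0.06 and the −log10 p ratios on 0.56.

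The regions lay near places that the Ox list did hold. The median gap to the nearest reproducible Ox peak was 2977 bp, against 7669, 22571 and 57982 bp in the tagged-only classes with a peak in 2, 1 and no Ox library. Within 1 kb of such a peak lay 590 of them (27.4%, Wilson 95% interval 25.6 to 29.4), against 16.7%, 7.67% and 1.61% in those classes. The share was 13.7% within 500 bp and 40.9% within 2000 bp, and 10.6% when the Ox list was held to an IDR of 0.01. At the other end, 600 regions (27.9%) were more than 10 kb from any reproducible Ox peak. The nearest region, on Chr2 from 5218983 to 5220270, ended 7 bp from an Ox peak, and others on Chr5 from 7043405 to 7047232 and on Chr2 from 5716137 to 5717562 had gaps of 37 and 59 bp. A single-library peak that met both a region and a reproducible Ox peak was found at 22, 1 and 5 regions in Ox replicates 1, 2 and 3, and at 27 regions in all. Several peaks of the library met the same region at 560, 776 and 849 regions in these replicates. The count of single peaks therefore cannot tell how many regions were flanks of an Ox peak, which was not tested.

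Along the chromosomes, the share of tagged-only regions that had a peak in every Ox library was lower the further they lay from the dense stretch left out by the rule. It was 66.2% within 1 Mb of the stretch, 62.4% from 1 to 2 Mb, 57.4% from 2 to 4 Mb, 43.8% from 4 to 6 Mb, 32.1% from 6 to 8 Mb and 18.5% further out. The share with no Ox peak ran the other way, with 3.52% in the nearest class and 41.5% in the farthest. Within 2 Mb of the stretch 829 of 1289 tagged-only regions (64.3%) were seen in every Ox library, against 329 of 1340 (24.6%) at 6 Mb or more, a difference of 39.8 percentage points. Each of the 8 chromosomes showed this direction, with 71.4% near and 19.4% far on Chr1 as the widest difference and 57.3% near and 27.2% far on Chr6 as the smallest. It was also seen at like widths, with 47.0% near and 14.98% far for regions of 500 to 1000 bp and 79.0% near and 40.97% far for regions of 1 to 2 kb.

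The density of relaxed peaks moved with the same distance. Relaxed peaks covered a mean of 22.2% of all bases in the ChCUC1:V libraries and 19.7% in the Ox libraries within 1 Mb of the stretch, against 3.69% in ChCUC1:V and 1.45% in Ox beyond 8 Mb. The part of this density in the share of regions with an Ox peak was not tested. Where relaxed peaks of each Ox library had to cover 50% of the region, the share was 15.4% near and 3.36% far, a difference of 12 percentage points, and with the Ox lists held to their 21353 strongest peaks it was 20.4% near and 5.07% far, a difference of 15.3 percentage points. Both shares were lower under these rules, so the smaller differences do not show a flatter gradient. The share of tagged-only regions with a peak in all 3 ChCUC1:V libraries was 81.7% near and 74.9% far. Tagged-only regions were chosen as reproducible peaks of these same libraries, so this share and that of the Ox libraries are not on equal terms.

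**Figure D4:**
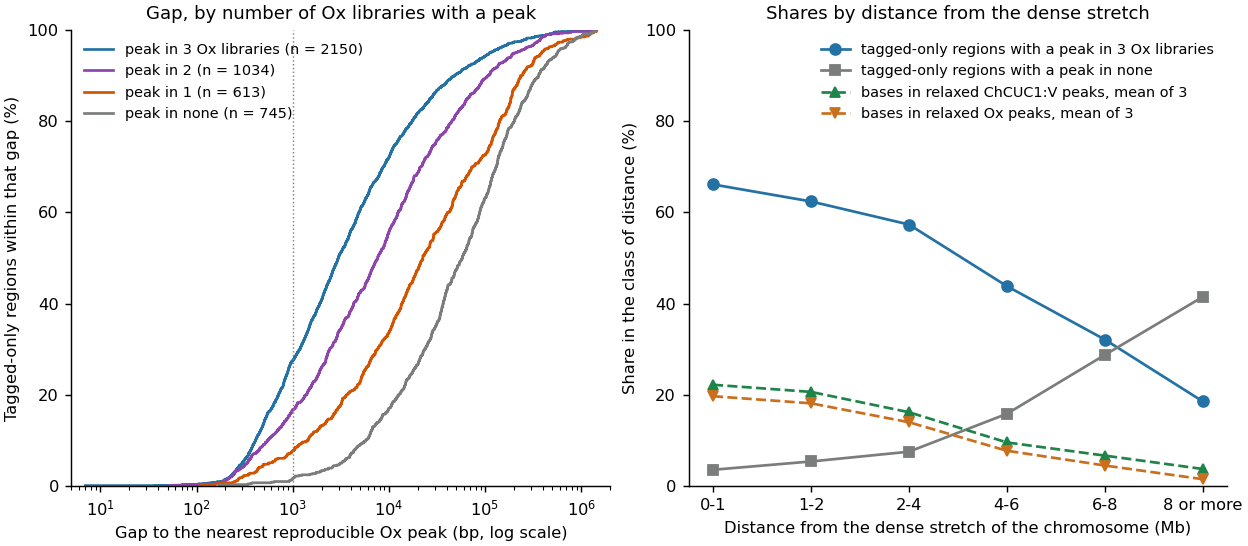
Left, share of tagged-only regions (y axis, %) within a given gap in bp of the nearest reproducible Ox peak (x axis, log scale; dotted line at 1000 bp), by the number of Ox libraries with a peak. Right, shares (y axis, %) by distance in Mb from the dense stretch (x axis): tagged-only regions with a peak in all 3 Ox libraries made up 66.2% in the nearest class and 18.5% in the farthest, those with a peak in none were more frequent far out (41.5%), and fewer bases were covered by relaxed peaks there (dashed, mean of 3 libraries per genotype).

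By chromosome, the 2150 regions numbered 243, 225, 282, 331, 281, 253, 250 and 285 on Chr1 to Chr8. They made up between 41.2% of the tagged-only regions on Chr1 and 53.4% on Chr5, and lay at a density of 10.49 per Mb on Chr1 and 16.04 per Mb on Chr5. The richest 1-Mb windows were on Chr5 from 8 to 9 Mb, with 47 of 60 tagged-only regions, on Chr5 from 6 to 7 Mb, with 46 of 67, and on Chr4 from 11 to 12 Mb, with 39 of 54. The median gap from a region to the next was 28431.5 bp, and 557 regions (25.9%) lay within 1 kb of a shared ChCUC1:V peak.

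At some of the regions of highest fold all ChCUC1:V folds lay above all Ox folds, and at others the groups overlapped. Gene positions below come from a shortened copy of the study's peak annotation, so they give the place of a region and no count of genes. The strongest region, intergenic on Chr4 from 6541848 to 6543950 near CARHR116930, reached 3.81, 3.47 and 3.28-fold in ChCUC1:V replicates 1 to 3 and 3.28, 3.23 and 3.13-fold in Ox replicates 1 to 3. Its untagged peaks ranked at percentiles 99.5, 93.4 and 98.4, and a reproducible Ox peak lay 699 bp away. The lowest tagged value exceeded the highest untagged one there only beyond the digits shown. A region in an exon of CARHR092310 (*Arabidopsis* counterpart AT3G17060), on Chr3 from 5872286 to 5873447, had folds of 4.19, 3.15 and 3.15 in ChCUC1:V and 2.38, 2.95 and 2.44 in Ox, so that the groups did not overlap.

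The other strong regions overlapped between genotypes. At the transcript end of CARHR111700, on Chr3 from 23438584 to 23441928, folds were 4.28, 3.05 and 3.30 in ChCUC1:V and 1.70, 3.43 and 2.496 in Ox. In an exon of CARHR096220, the counterpart of *GRP5* (AT3G20470), which encodes a glycine-rich protein, a region on Chr3 from 7335353 to 7336190 had folds of 4.12, 2.87 and 2.89 in ChCUC1:V and 1.94, 3.67 and 2.07 in Ox. In both, Ox replicate 2 alone reached the range of the tagged libraries. An intergenic region near CARHR157470, on Chr5 from 15301164 to 15306028, had folds of 3.61, 3.30 and 2.88 in ChCUC1:V and 2.54, 3.63 and 3.20 in Ox. None of the auxin transport and organ boundary genes that were looked up by name, among them the *PIN*, *WAG* and *CUC* genes, was paired with a region in the copy held. That copy covered 1997 of the 15299 reproducible ChCUC1:V peaks, and a region without an entry could not be paired with any gene. The lack of a pairing therefore says nothing about these genes.

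The regions with the highest ChCUC1:V over Ox fold had tagged peaks that ranked high and untagged peaks near the bottom of at least 1 list. They were picked by this contrast. The highest, intergenic near CARHR057980 on Chr2 from 11503267 to 11504332, had folds of 3.94, 2.91 and 2.85 in ChCUC1:V and 1.61, 2.57 and 1.89 in Ox, a log2 ratio of 0.68. The summit of its peak in ChCUC1:V replicate 3 lay 5685 bp away, outside the region. That summit fell inside a reproducible Ox peak, from 11504681 to 11510247, which began 348 bp from the region. The fold of 2.85 was thus not measured in the region, and the log2 ratio rests in part on it. The next, in an exon of CARHR128170, a cysteine proteinase-like gene (AT2G34080), on Chr4 from 16582936 to 16583635, had folds of 3.79, 2.58 and 2.32 in ChCUC1:V and 1.63, 2.07 and 1.83 in Ox (log2 ratio 0.65). Its tagged peaks ranked at percentiles 99.04, 91.9 and 87.7 and its untagged ones at 9.5, 19.9 and 14.9, and all 6 summits lay within 87 bp of the reproducible summit. This region also had 1 of the 5 weakest sets of Ox peaks among all 2150, with −log10 p values of 3.65, 3.47 and 3.50.

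Further regions of this kind were a promoter and a pair of exons. In the promoter of CARHR257750, on Chr8 from 5634613 to 5635269, folds were 4.30, 2.90 and 2.57 in ChCUC1:V and 1.75, 2.62 and 2.20 in Ox (log2 ratio 0.57), with overlap through Ox replicate 2. An exon of CARHR035870 (AT1G44191), on Chr1 from 20016192 to 20017041, had folds of 2.85, 2.62 and 2.76 in ChCUC1:V and 1.83, 1.87 and 1.91 in Ox (log2 ratio 0.55). These were the most even values within both groups among the 5. An exon of CARHR070050 (AT1G76500), on Chr2 from 18391979 to 18392979, had folds of 3.45, 2.38 and 2.78 in ChCUC1:V and 1.96, 2.01 and 1.90 in Ox (log2 ratio 0.55).

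At the opposite end, the untagged peak was the higher one. On Chr5 from 8154222 to 8155053 folds were 2.08, 1.47 and 1.47 in ChCUC1:V and 1.86, 2.80 and 2.75 in Ox, a log2 ratio of −0.56. The summits in Ox replicates 1 and 2 lay 849 and 335 bp from the region's summit, outside the region. The folds of 1.86 and 2.80 were thus not measured in the region, and the log2 ratio rests in part on them. On Chr6 from 15323742 to 15324911 folds were 2.26, 1.99 and 1.87 in ChCUC1:V and 2.48, 3.71 and 2.46 in Ox (log2 ratio −0.50), so that all Ox values lay above. The next 3 lay on Chr7 from 3986724 to 3988448 (−0.49), on Chr6 from 4865188 to 4866767 (−0.48) and on Chr2 from 9772702 to 9774381 (−0.48). Their scaled IDR scores in the ChCUC1:V list were 548, 578 and 546, close to the lowest of 540.

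**Figure D5:**
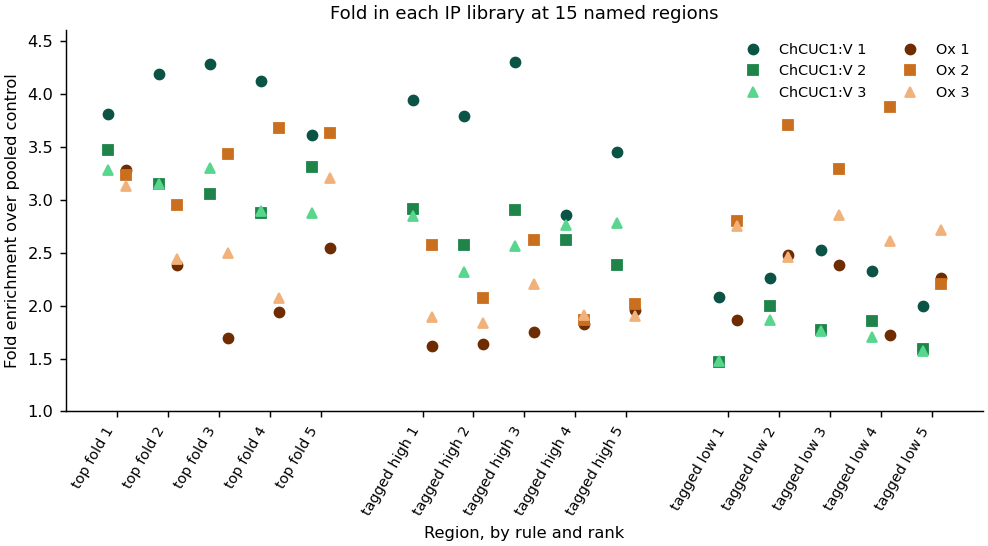
Fold enrichment over pooled control (y axis) in 3 ChCUC1:V libraries (green, left of each position) and 3 Ox libraries (brown, right), at the 5 regions of highest fold in the reproducible list and at the 5 with the highest and the 5 with the lowest ChCUC1:V to Ox fold ratio (x axis, by rule and rank). ChCUC1:V replicate 1 is often the highest tagged value, with up to 4.30 at region 3 of high ratio, and Ox replicate 2 often the highest untagged one, with 3.88 at region 4 of low ratio.

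The 5 regions with the highest smallest-of-3 Ox −log10 p were broad and intergenic. A broad region can meet more Ox peaks, of which the strongest stood for the library. The region whose weakest Ox peak was the strongest, near CARHR157320 on Chr5 from 15227770 to 15232069, had −log10 p values of 11.8, 35.0 and 38.3 in ChCUC1:V replicates 1 to 3 and 13.7, 10.1 and 11.1 in Ox replicates 1 to 3. It lay on the same chromosome as the region near CARHR157470. On Chr7, a region near CARHR217620 (AT5G35560) from 5893385 to 5896762 had the largest Ox value of all, with −log10 p values of 9.26, 16.6 and 19.1 in ChCUC1:V and 21.4, 8.99 and 10.6 in Ox. Others lay on Chr2 from 3352161 to 3358218 (6058 bp) and on Chr6 from 6909357 to 6911836 (2480 bp). The annotation held placed all 5 outside genes, but the share of intergenic regions among all the regions was not taken.

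The weakest sets of untagged peaks accompanied tagged peaks of uneven rank. On Chr6 from 23205502 to 23207409 the −log10 p values were 7.31, 7.21 and 8.21 in ChCUC1:V and 2.96, 2.20 and 3.33 in Ox, and the nearest reproducible Ox peak was 305887 bp away. The other regions of this kind, but for 1, had a score below 650 in the reproducible list, namely those on Chr7 from 17796026 to 17796669 (649), on Chr5 from 4428826 to 4430199 (574) and on Chr2 from 16174368 to 16174989 (553). The region on Chr7 had no peak in ChCUC1:V replicate 2 and ranked at percentiles 43.7 and 29.4 in ChCUC1:V replicates 1 and 3. The region on Chr5 ranked at percentiles 64.1, 12.7 and 9.69 in ChCUC1:V replicates 1 to 3, and the region on Chr2 at 76.3, 57.1 and 22.0. The exception was the exon of CARHR128170 described above, with the top score of 1000.

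In size the regions ran from 366 bp, on Chr3 from 18979623 to 18979988, to 6760 bp, on Chr2 from 13155046 to 13161805. The narrowest had a peak in ChCUC1:V replicate 2 alone among the tagged libraries (fold 1.99), against folds of 1.89, 2.49 and 2.28 in Ox replicates 1 to 3. The summit that gave 1.99 lay 687 bp from the reproducible summit, outside the region, so that fold was not measured in it. The next narrowest, on Chr6 from 12620776 to 12621182 and on Chr5 from 8799704 to 8800111, measured 407 and 408 bp. The widest had folds of 2.73, 2.36 and 2.35 in ChCUC1:V and 2.18, 2.43 and 2.02 in Ox, and its summits in Ox replicates 1 and 2 lay 3041 and 3389 bp from the reproducible one. The next widest, on Chr5 from 9080398 to 9087135 and on Chr2 from 5231447 to 5237995, measured 6738 and 6549 bp, and all 3 were intergenic. The region at the median fold, on Chr6 from 6403371 to 6405107, reached 2.51 and 2.11-fold in the tagged replicates 1 and 2, had no peak in ChCUC1:V replicate 3, and showed folds of 1.86, 2.22 and 2.24 in Ox, so that tagged and untagged values overlapped there as at most regions.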

How the data were processed

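Peak lists of 6 IP libraries, 3 ChCUC1:V and 3 Ox, and 2 reproducible lists were used, and the inputs entered only through the pooled control. Bowtie, MACS2 and bedtools are named in the submitters' processing notes, with no versions. The genome build behind the coordinates (counted from 1) was not given in the sources used here. Relaxed lists were called by the authors at a p of 0.01 after removal of duplicate reads. The fold deposited by the authors is a linear ratio, at the summit, of IP to pooled control. The −log10 p was deposited for each peak. The score deposited in the reproducible lists is a scaled IDR, with 540 for 0.05, 830 for 0.01 and 1000 as the top. The lists are named case and control. The case list was taken as ChCUC1:V, since 1997 of 1997 ChCUC1 peaks held from the study's annotation have its exact intervals and 0 those of the control list. The lists give no read counts, so sequencing depth is unknown, and Wilson intervals cover counting error between regions only.

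Intervals were compared in Python 3.11.15 with numpy 2.4.6 and pandas 2.3.3, at a minimum overlap of 1 bp, and the overlap code was tested on simulated intervals. The 3 libraries of a group were taken as replicates from their titles. No test was made, because the lists that chose the regions are the ones described. The members, the stretches left out and the gene list were chosen with earlier results of these data known.

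Regions were named by rule: the 5 of highest fold, the 5 with the highest smallest and the 5 with the lowest largest Ox −log10 p, the 5 highest and 5 lowest by ChCUC1:V to Ox fold, the 3 widest and 3 narrowest, the median one, and the 3 nearest each border of the rule. The alternatives were stricter IDR, other overlap and summit rules, lists of equal length (21353 peaks), −log10 p or rank for fold, and leaving out each library. No sequence of the regions was read, as no genome of this build was used here.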

Additional observations from a re-analysis of the deposited data

How the results depend on the processing

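The number of regions depended on the thresholds. It was 1148 with the ChCUC1:V list at an IDR of 0.01, 4757 with the Ox list at that IDR, 461 when 50% of the region had to be covered in each Ox library, 1142 when the region's own summit had to lie inside a peak of each Ox library, 633 with Ox lists of 21353 peaks, and 2306 to 2795 when 1 Ox library was left out. The share with all 3 Ox summits near the region's summit, 32.0%, was 7.26% at 100 bp, 54.5% at 500 bp, 43.2% with any peak of the library and 41.5% to 44.2% without 1 Ox library. The median log2 fold ratio of −0.06 was 0.56 by −log10 p and 0.20 by rank, and −0.19 to 0.04 without 1 library. The count of regions with all ChCUC1:V folds above all Ox folds, 41, was 700 by −log10 p, 247 by rank and 41 to 193 without 1 library, and the count below, 93, was 1, 48 and 94 to 589. The share within 1 kb of a reproducible Ox peak, 27.4%, was 13.7% within 500 bp, 40.9% within 2000 bp and 10.6% with the Ox list at an IDR of 0.01. The median width of 1285 bp was 1340 bp with the ChCUC1:V list at an IDR of 0.01 and 941 bp under 50% cover. The near minus far difference by distance from the dense stretch, 39.8 points, was 12 points under 50% cover (15.4% near and 3.36% far) and 15.3 points with equal lists (20.4% near and 5.07% far), and 38.3 to 44.5 points without 1 Ox library. These last alternatives were chosen after seeing the data. The median of the smallest Ox −log10 p, 4.14, was 4.28 to 5.05 without 1 Ox library. The cause of these shifts was not tested.

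No paired analysis was possible because no result comes from a test. Without read counts, depth could not be set against peak number, width or −log10 p, which differ between libraries of a genotype, and an interval absent from a list is not shown to lack signal.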
